A study of Mus musculus with 12 samples.

Results

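The expression data examined here are 9 RNA-seq libraries of whole kidneys from E18.5 mouse embryos, out of 12 libraries in the series. They were chosen because they were sequenced in the same run, and were ordered by genotype as wild type (Wt, score 0), kidneys labelled Hoxa9,10,11-/- HoxC9,10,11+/- (AkCh, score 1) and kidneys labelled Hoxa9,10,11-/- HoxC9,10,11-/- (AkCk, score 2), with 3 libraries each. The other 3 libraries, from Hoxa9,10,11+/- HoxC9,10,11-/- kidneys, came from another run and were not used in any fit. All embryos were of a mixed background (129/CD1 by the study's methods) and of the same age. The question was which genes follow the order of the genotypes, which of these move by similar amounts in both steps, and which move only from AkCh to AkCk.

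The order needs care as a dose. By the labels the score equals the number of mutant HoxC alleles, but the mutant HoxA alleles number 0, 2 and 2, so by the labels the first step adds 3 mutant cluster alleles and the last step adds 1. The AkCk label goes against the study's text. There, embryos homozygous for all these HoxA and HoxC mutations lacked visible kidneys at this age, and the double homozygous kidneys that were sequenced are given as Hoxa9,10-/- with Hoxa11 heterozygous or intact. The AkCk kidneys are therefore taken as labelled only for the HoxC, Hoxa9 and Hoxa10 alleles, and the number of mutant Hoxa11 alleles in each library was not used here. By that text the order is not one of rising dose for Hoxa11, of which AkCk would carry fewer mutant alleles than AkCh, so the allele numbers by the labels do not hold for that gene. The mutant alleles are frameshifts in the first exons, from which mRNA can still be made, so Hox mRNA levels do not check the genotype labels. Nothing in the labels says whether the embryos came from separate litters, and p-values measure the spread between these libraries only.

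Posterior (Abdominal-B type) Hox genes encode homeodomain transcription factors, and neighbouring and paralogous members overlap in function, so that removing more of them tends to expose a stronger phenotype. In the embryonic kidney, the ureteric bud branches in response to Gdnf from the cap mesenchyme acting on the receptor Ret, the cap mesenchyme forms nephrons, and the stroma between them makes the interstitial matrix of collagens and proteoglycans. In whole kidney RNA, a change in the number of cells of a type and a change in RNA per cell cannot be told apart.

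Counts on genes ranged from 28616878 to 42353534 per library, with a median of 39304131. The library AkCh 20 had the fewest counts, the next lowest being 36951252, and stood apart from the other 8 libraries. Its mean correlation with the other libraries of its group was 0.943. That of the Wt and AkCk libraries was 0.984 to 0.989. AkCh 31 and 33 were at 0.968 and 0.965, means that include their correlation with AkCh 20. The sample quality weight by limma was 0.0823 for AkCh 20 and 0.576 to 2.75 for the others. Relative to AkCh 31 and 33, all 20 proximal tubule genes were lower in it (median log2 difference -2.63), 13 of 14 podocyte genes were lower (median -0.98), and 12 of 14 cap mesenchyme genes were higher (median 0.87). The counts and classes are therefore given with all 9 libraries and again without AkCh 20. The groups were also unequal in sex. Xist was at most 0.137 CPM in the 3 Wt libraries, AkCh 20 and AkCk 24, and 59.4 to 251 CPM in AkCh 31 and 33 and AkCk 27 and 29, and the Y-linked genes Ddx3y, Kdm5d, Uty and Eif2s3y were at 19.6 CPM or more in the former and at most 0.109 CPM in the latter. The first step thus goes from 3 males to 1 male and 2 females, and the last step has the same sexes at both ends. With AkCh 20 left out, the first step goes from 3 males to 2 females, so that sex and genotype cannot be told apart in it, and the last step goes from 2 females to 1 male and 2 females.

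With all 9 libraries, 544 of 16034 genes tested (3.39%) followed the order at an adjusted p under 0.05 by edgeR's quasi-likelihood test of 1 slope per step. Of these, 280 rose (1.75% of the genes tested) and 264 fell (1.65%), and 3095 genes were at an unadjusted p under 0.05. Without AkCh 20 the test called 2627 of 16252 genes (16.2%), of which 1234 rose (7.59%) and 1393 fell (8.57%), and all 544 genes were among them. The number of calls rested on single libraries. It was 272 without Wt 30, 144 without Wt 37, 72 without Wt 55, 366 without AkCh 31, 394 without AkCh 33, 55 without AkCk 24, 85 without AkCk 27 and 158 without AkCk 29. Scaling by library size alone moved the balance of directions to 232 rises among 713 calls. With Xist as a covariate 561 genes were called, 360 of them shared with the 544. By rank alone, 317 genes were completely ordered, with no overlap between groups: 133 upward (0.829%) and 184 downward (1.15%). Leaving out AkCh 20, 1190 of the same tested genes were completely ordered. The exact Jonckheere-Terpstra permutation test cannot go below a two-sided p of 0.00119 in this design, which left the smallest adjusted p at 0.0602, so it called 0 genes, with 3142 at an unadjusted p under 0.05.

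The slope was carried more by the last step than by the first. The share of the whole log2 change from Wt to AkCk that lay in the first step had a median of 29.7% over the 544 genes (quartiles 19.4% and 41.3%), and was under 50% in 468 of them. Without AkCh 20 the same genes had a median share of 27.9%. Among the genes tested with all libraries, the 2604 called without AkCh 20 had a median share of 32.8%. Tested singly, the first step called 0 of 16034 genes (percent called 0), with 457 at an unadjusted p under 0.05. The last step called 181 genes (1.13%), 110 of them upward, with 2773 at an unadjusted p under 0.05. This gap in unadjusted counts was narrower in some alternatives. First and last step gave 1811 and 3808 genes without AkCh 20, and 3584 and 4330 with Xist as a covariate. By voom with quality weights they gave 4668 and 4746, nearly equal, and by DESeq2 587 and 3100. The first step called 4 genes without AkCh 20, 20 genes by DESeq2, 26 by limma voom with quality weights and 3 by limma on the deposited log2 values. The last step called 970 genes without AkCh 20, 1116 by DESeq2 and 2132 by voom with quality weights. It called 14 genes without AkCh 31, 12 without AkCk 24, and 0 without AkCh 33 or AkCk 27. The departure from even steps, the test that AkCh lies off the midpoint between Wt and AkCk, called 0 genes (percent called 0) with 839 at an unadjusted p under 0.05, and 4 genes without AkCh 20, 51 by DESeq2, 34 by voom with quality weights and 3 by limma on the deposited values. No gene's shape was therefore set apart from a straight line after adjustment by edgeR with all libraries, and the classes that follow use an unadjusted p for the departure (last-step class) or for both steps (even class). The coding of the order mattered as well: scores of 0, 0, 1 called 1032 genes, scores of 0, 3, 4 called 8, and scores of 0, 1, 1 called 0. By the labels, 0, 3 and 4 are the summed mutant HoxA and HoxC alleles, so this dose called 8 genes. The scores 0, 1, 1 follow the labelled HoxA alleles, which number 0, 2 and 2. Both carry the doubt over Hoxa11 given above.

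**Figure D1:**
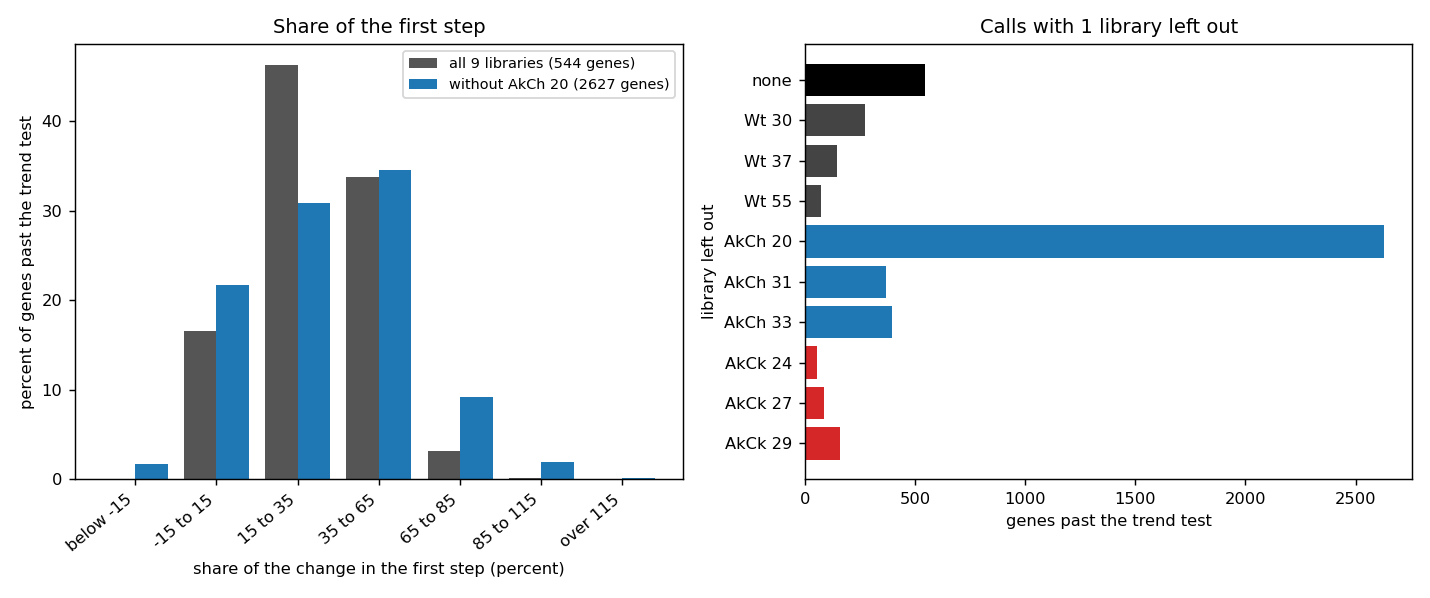
Left, bars give the percent of genes past the trend test by the share (percent) of their log2 change that falls in the first step, for all 9 libraries (544 genes) and without AkCh 20 (2627 genes). Right, bars give the number of genes past the trend test when the named library is left out, from 55 without AkCk 24 to 2627 without AkCh 20.

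Genes were called even when the share lay between 35% and 65% and both steps had an unadjusted p under 0.05. This class held 84 genes (0.524% of the genes tested), 38 rising and 46 falling, out of 184 with a share in that range. They were called as changing only in the last step when the share lay between -15% and 15%, the last step passed at an adjusted p under 0.05 and the departure from even steps had an unadjusted p under 0.05. This class held 54 genes (0.337%), 41 rising and 13 falling, out of 90 with such a share. The mirror class of change only in the first step held 0 genes. A large middle group of 252 genes had shares from 15% to 35%. Without AkCh 20 the even class had 154 genes, 48 of them shared with the 84, and the last-step class had 326, 33 of them shared with the 54. The last-step class was the less stable: it held 0 genes without AkCh 33, AkCk 24 or AkCk 27, and 14, 5, 4, 10 and 6 genes without Wt 30, Wt 37, Wt 55, AkCh 31 and AkCk 29. The even class held 54 genes without Wt 37, 22 without Wt 55, 47 without AkCh 31, 24 without AkCk 24 and 38 without AkCk 27.

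**Figure D2:**
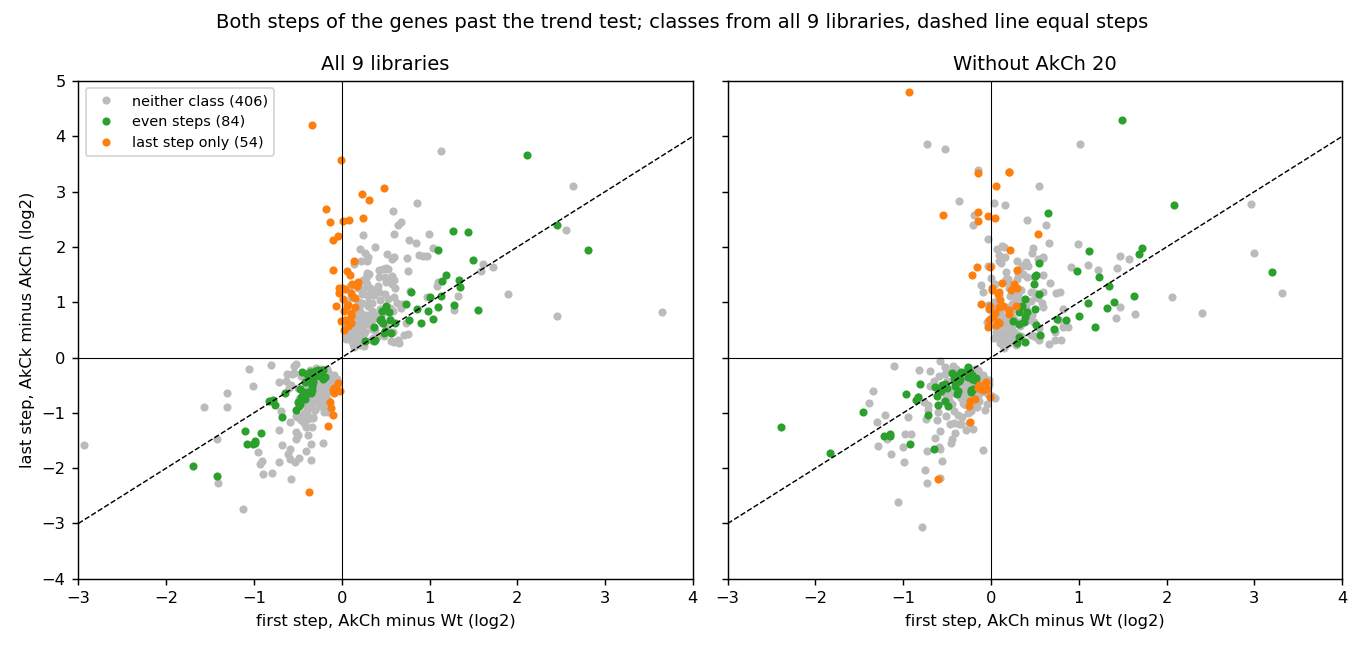
Each point is 1 of the 544 genes past the trend test, at its first step (x, AkCh minus Wt, log2) and last step (y, AkCk minus AkCh, log2), with all 9 libraries on the left and without AkCh 20 on the right. The 84 even genes lie near the dashed line of equal steps and the 54 last-step genes along the vertical axis, with wider scatter on the right, where the classes were not redrawn, and 4 and 5 genes lie outside the axes.

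The 8 genes with the smallest trend p among those that rose in even steps are described first. Lumican (Lum), a small leucine-rich proteoglycan that binds collagen fibrils, had the smallest trend p of the class. It was at 16.8, 14.6 and 12.2 CPM in Wt, 30.4, 34.4 and 28.5 CPM in AkCh, and 84.7, 147 and 126 CPM in AkCk. The groups did not overlap, and AkCh 20 lay between the other AkCh libraries. The slope was 1.52 ± 0.12 log2 per step (SE, adjusted p = 0.0031), with a first step of 1.10 ± 0.21 and a last step of 1.94 ± 0.21, and the first-step share was 36.2% with and 36.7% without AkCh 20. Its departure from even steps was -0.42 ± 0.18, with an unadjusted p of 0.044 in the edgeR test of the departure, which the even class does not use. Tgm2, a transglutaminase that crosslinks proteins of the matrix, was at 74.0, 66.5 and 63.3 CPM in Wt, 104, 92.4 and 99.5 CPM in AkCh, and 172, 196 and 159 CPM in AkCk. Its groups did not overlap either, and it rose by 0.69 ± 0.06 per step (adjusted p = 0.0031).

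Cpa3 and Cma1, proteases of mast cell granules, were near 1 CPM or lower in Wt and rose in both steps. Cpa3 was at 0.708, 0.821 and 0.587 CPM in Wt, 1.03, 1.83 and 2.84 CPM in AkCh, and 10.6, 9.01 and 8.15 CPM in AkCk. Cma1 was at 0.262, 0.274 and 0.343 CPM in Wt, 0.688, 2.03 and 3.42 CPM in AkCh, and 8.47, 8.18 and 7.22 CPM in AkCk. In both genes the groups did not overlap and AkCh 20 was the lowest AkCh library. The slopes were 1.87 ± 0.18 and 2.33 ± 0.25 per step (adjusted p = 0.0051 and 0.0056). Without AkCh 20 the first-step share of Cma1 moved from 59.1% to 67.4%, out of the even class.

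Matn2, a matrilin of the pericellular matrix, and Postn, the matricellular protein periostin, were even with all libraries and not without AkCh 20. Matn2 rose by 0.72 ± 0.08 per step (adjusted p = 0.0056). Postn was at 117, 111 and 117 CPM in Wt, 273, 182 and 143 CPM in AkCh, and 392, 568 and 401 CPM in AkCk. AkCh 20 was the highest AkCh library, and the first-step share fell from 40.1% to 25.2% without it, while the slope stayed at 0.99 ± 0.12 with and 0.99 without it. Dlk1, an imprinted gene for a noncanonical Notch ligand, also depended on AkCh 20 for its class. It was at 38.7, 43.3 and 39.9 CPM in Wt, 216, 73.9 and 53.5 CPM in AkCh with AkCh 20 first, and 426, 442 and 296 CPM in AkCk. All groups were separate, with a slope of 1.63 ± 0.22 per step (adjusted p = 0.0086), but the first-step share was 45.8% with AkCh 20 and 19.9% without it. Kera (keratocan, a relative of lumican) and Nell2 (a secreted glycoprotein) complete the 8 leading rises. Nell2 rose by 0.76 ± 0.09 per step from 18.4 to 20.1 CPM in Wt over 31.1 to 37.98 CPM in AkCh to 42.5 to 68.3 CPM in AkCk. Kera was at most 2 counts in any Wt library and reached 1.21 to 1.82 CPM in AkCk, so no fold is given. Of the 8 leading rises, 4 (Lum, Tgm2, Cpa3 and Nell2) were also even without AkCh 20. With all libraries the shares of Lum, Tgm2, Cpa3, Matn2 and Kera were 35.1% to 39.3%, outside the narrower limits of 40% to 60%. Those of Nell2, Postn and Cma1 lay within these limits.

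The leading even falls included several genes of splicing and RNA processing. Fnbp4, a WW-domain protein, had the smallest trend p of these falls, at 48.9, 46.9 and 48.9 CPM in Wt, 39.4, 34.4 and 39.7 CPM in AkCh, and 23.5, 25.5 and 23.9 CPM in AkCk. The groups did not overlap and the slope was -0.49 ± 0.05 per step (adjusted p = 0.0056). Wsb1, which encodes a substrate-recognition subunit of a ubiquitin ligase, was at 140, 146 and 185 CPM in Wt, 121, 106 and 112 CPM in AkCh, and 67.7, 56.4 and 64.9 CPM in AkCk, a slope of -0.66 ± 0.07 (adjusted p = 0.0056). Clk1, a kinase of splicing factors of the SR family, was at 54.1, 54.3 and 70.8 CPM in Wt, 48.7, 36.6 and 41.6 CPM in AkCh, and 24.4, 24.3 and 23.5 CPM in AkCk, with a slope of -0.65 ± 0.07 (adjusted p = 0.0058). In these 3 genes the groups did not overlap, and AkCh 20 was the AkCh library closest to Wt in Wsb1 and Clk1. Slc4a3 (an anion exchanger), Snhg5 (a small nucleolar RNA host gene), Sugp2 (a protein with domains of splicing factors) and 6720401G13Rik (a noncoding RNA) were further leading falls, with slopes of -0.73 ± 0.08, -0.68 ± 0.08, -0.53 ± 0.07 and -1.28 ± 0.16. These 7 leading falls were even without AkCh 20 as well. With all libraries their first-step shares were 45.4% in Sugp2 and 35.4% (Fnbp4) to 39.1% (6720401G13Rik) in the others. Those others lie outside the narrower limits of 40% to 60%. The 15 leading rises and falls described stayed past the trend test in each of the 9 fits that left out 1 library.

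**Figure D3:**
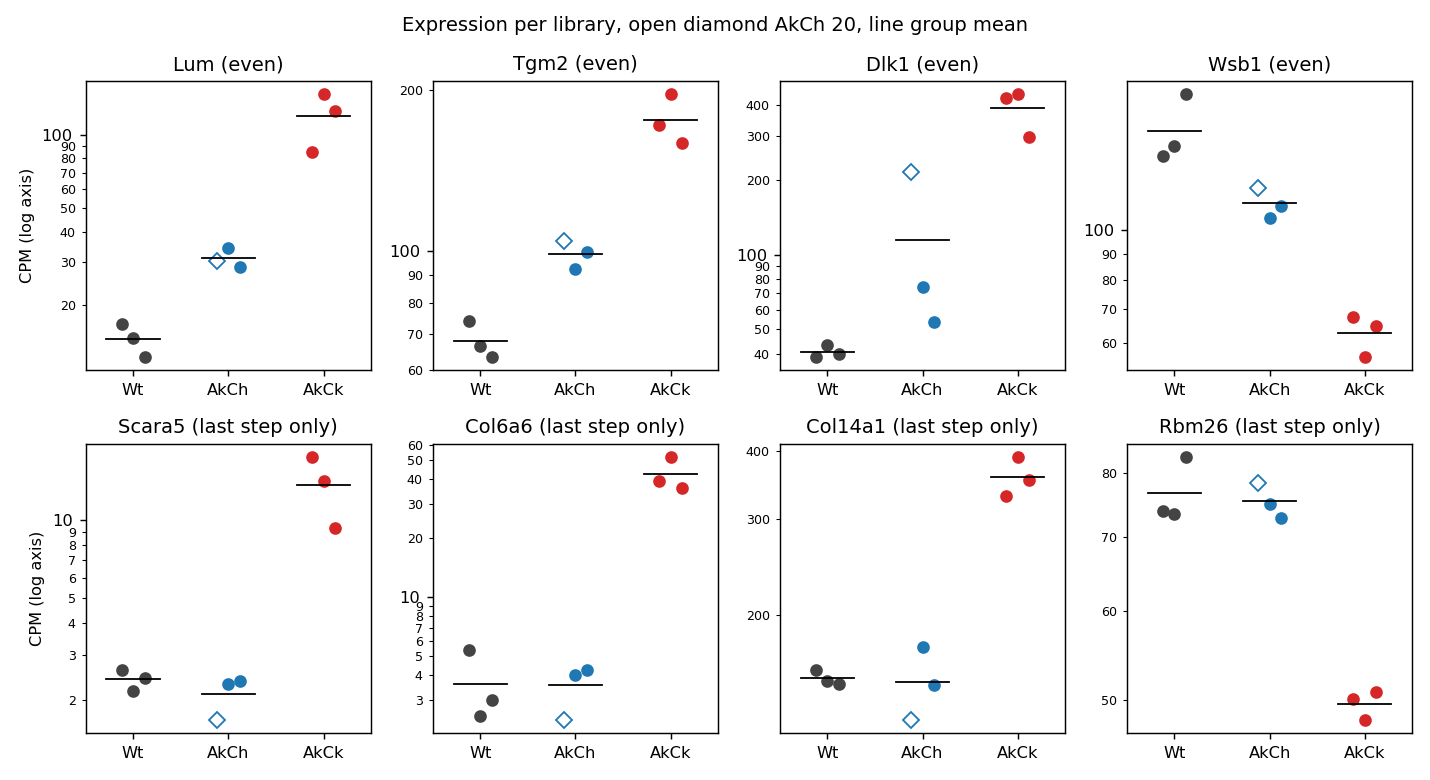
Each panel plots CPM on a log axis for 1 gene, with points for the 3 libraries of each genotype, an open diamond for AkCh 20 and a line at the group mean. Lum, Tgm2 and Wsb1 sit at intermediate levels in all AkCh libraries, Dlk1 does so only through a wide range from 53.5 to 216 CPM, and in Scara5, Col6a6, Col14a1 and Rbm26 the AkCh points lie at the level of Wt.

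Next are the 8 rises of the last-step class with the smallest p of that step, of which Col6a6, Col14a1, Tnxb, Col5a3 and Dpt encode matrix proteins. Scara5, a ferritin receptor of the scavenger receptor family, was at 2.62, 2.17 and 2.45 CPM in Wt and 1.68, 2.31 and 2.37 CPM in AkCh, and at 17.7, 14.2 and 9.37 CPM in AkCk. Wt and AkCh overlapped and each AkCk library was above both. The first step was -0.18 ± 0.25 and the last 2.69 ± 0.26 log2 (adjusted p = 0.011), with an unadjusted p of 0.00018 for the departure from even steps. Col6a6, a chain of type VI collagen, was at 5.35, 2.46 and 2.99 CPM in Wt, 2.37, 4.03 and 4.25 CPM in AkCh, and 39.2, 51.9 and 36.0 CPM in AkCk. Its steps were -0.01 ± 0.33 and 3.57 ± 0.35 (adjusted p = 0.011).

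Col14a1, a fibril-associated collagen, was abundant in all groups. It was at 159, 152 and 149.8 CPM in Wt, 129, 175 and 149 CPM in AkCh, and 331, 391 and 354 CPM in AkCk, with steps of -0.03 ± 0.12 and 1.25 ± 0.13 (adjusted p = 0.011). Tnxb (tenascin X, a matrix glycoprotein) was at 2.78, 2.55 and 2.99 CPM in Wt, 4.85, 2.65 and 2.35 CPM in AkCh, and 27.3, 29.1 and 19.1 CPM in AkCk, with a last step of 2.95 ± 0.29. Col5a3 (a chain of type V collagen), Dpt (dermatopontin, which binds decorin and collagen), Apod (a lipocalin) and 4833403I15Rik were the other 4 leading rises, with last steps of 2.48 ± 0.25 for Col5a3 and 3.06 ± 0.34 for Dpt. Apod had at most 6 counts in any Wt library and 1.13 to 1.86 CPM in AkCk. 4833403I15Rik had at most 1 count in Wt and 0.896 to 1.45 CPM in AkCk, and no fold is given for it.

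The 8 leading falls of the last-step class are given next. Rbm26, an RNA-binding protein, was at 73.8, 73.4 and 82.7 CPM in Wt and 78.3, 74.99 and 72.9 CPM in AkCh, and at 50.01, 47.9 and 50.8 CPM in AkCk, with steps of -0.02 ± 0.08 and -0.60 ± 0.09 (adjusted p = 0.021). Cenpe, a kinesin of the kinetochore, was at 72.8, 71.0 and 75.8 CPM in Wt, 72.1, 66.2 and 62.4 CPM in AkCh, and 38.6, 34.4 and 41.3 CPM in AkCk, with a last step of -0.81 ± 0.10 (adjusted p = 0.015). Ktn1 (a membrane protein of the endoplasmic reticulum), Ppig (a cyclophilin found with splicing factors), Etl4, Tnrc6a (a scaffold of microRNA silencing) and Prpf39 (a splicing factor) had last steps from -1.04 ± 0.17 for Prpf39 to -0.58 ± 0.09 for Ktn1, and the unnamed transcript Gm16973 had the largest, -2.43 ± 0.30. Of the 16 leading rises and falls of the last-step class, 4833403I15Rik stayed past the trend test in all 9 fits that left out 1 library, and the others did so in 1 to 8 of them. Without AkCh 20, the 6 rises other than Apod and 4833403I15Rik kept their class, as did 3 of the 8 falls (Rbm26, Etl4 and Tnrc6a). In all 54 genes of the class each AkCk library lay beyond all 6 others, a separation that the choice of the class favours.

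To show what lies before the start of such genes, the 250 bases upstream were read from the RefSeq promoter table (GRCm38.p6, first window listed) for the 4 leading genes with an entry in each class and direction. Of these 16 genes, Postn and Snhg5 had 1 motif match each and the other 14 had none, among them the even rises Cpa3, Kera and Cma1. Postn is printed because it has a match and Col6a6 because it is the first last-step rise with an entry, so the difference between the 2 sequences was set by that choice. Capitals mark TTTATNG or TTTACGA on either strand, letters preferred by posterior Hox proteins. The Postn sequence lies at chr3:54359017-54359266 on the plus strand and has 1 match, starting 62 bases before the transcript start. The Col6a6 sequence lies at chr9:105828086-105828335 on the minus strand and has 0 matches.
Postn: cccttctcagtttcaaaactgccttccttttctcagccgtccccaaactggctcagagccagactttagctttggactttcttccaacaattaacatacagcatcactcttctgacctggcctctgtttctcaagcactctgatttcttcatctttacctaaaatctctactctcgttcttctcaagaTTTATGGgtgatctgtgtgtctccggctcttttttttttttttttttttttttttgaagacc
Col6a6: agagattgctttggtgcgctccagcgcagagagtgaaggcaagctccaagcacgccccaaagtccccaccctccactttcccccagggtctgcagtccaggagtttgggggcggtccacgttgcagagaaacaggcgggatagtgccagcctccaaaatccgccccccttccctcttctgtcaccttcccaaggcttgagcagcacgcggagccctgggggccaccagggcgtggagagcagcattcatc
Of the 12496 tested genes with such an entry, 6.94% had either motif in this window. Because 77.9% of the tested genes and 72.2% of the last-step class had an entry, under the 80% needed, a comparison of motif shares between classes is void and none is made. A match is a description of letters and not of binding.

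Among all genes past the trend test whose AkCh mean lay between the others, the steepest rises were often near zero in Wt. Col6a5, another type VI collagen chain, was at 0.262, 0.137 and 0.440 CPM in Wt, 0.726, 0.381 and 0.757 CPM in AkCh, and 9.24, 10.6 and 4.89 CPM in AkCk, with a slope of 2.56 ± 0.31 (adjusted p = 0.0066). Cdh12, a cadherin, was at most 0.0912 CPM in Wt and at 2.01, 3.5 and 0.109 CPM in AkCk, so that AkCk 29 overlapped AkCh. Ms4a4d and Gm14150 were also split within AkCk, at 0.272 CPM against 1.29 and 1.51 CPM and at 2.53 CPM against 7.203 and 6.70 CPM, with AkCk 29 the lowest in each. Among the steepest falls, 6720401G13Rik was at 13.3, 14.3 and 23.9 CPM in Wt, and the others were of low transcripts, at most 8.27 CPM in Wt. Col11a2, a cartilage collagen, went from 3.57 to 8.27 CPM in Wt over 2.58 to 3.36 CPM in AkCh to 0.201 to 1.19 CPM in AkCk, with a slope of -1.41 ± 0.28. Gm5577, 4930579G18Rik, Rgs11, Fam227a and B230206H07Rik fell by 1.29 to 1.81 log2 per step. Ppifos was at 1.21, 1.12 and 0.832 CPM in Wt, 0.191, 0.334 and 0.887 CPM in AkCh, and 0.129, 0.0252 and 0.0543 CPM in AkCk, where its mean was under the floor, and no fold is given for it. The steepest rises and falls described here also passed without AkCh 20. Of the 9 fits that left out 1 library, Col6a5 and 6720401G13Rik passed in all 9 and the others in 2 (Cdh12) to 8 (Fam227a).

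Most of the listed interstitial matrix genes rose, with the larger median step last. All gene lists were drawn up with earlier results of these data known. A count above the share of all genes is therefore a description and not a test of a list. Of 12 interstitial collagen genes, all 12 had positive slopes and 8 rose past the test, where 1.75% of all genes rose (11 without AkCh 20, where 7.59% rose), with a median slope of 0.61 per step against -0.0042 over all genes tested. The median first step was 0.14 and the median last step 1.15 (0.20 and 1.04 without AkCh 20), beside 0.030 and -0.035 over all genes. Their summed level was 4979 to 5278 CPM in Wt, 5412 to 7027 CPM in AkCh, and 13263 to 16189 CPM in AkCk. Col1a1, the main chain of type I collagen, was at 796, 817 and 846 CPM in Wt, 1412, 1273 and 805 CPM in AkCh, and 2855, 3142 and 3043 CPM in AkCk. AkCh 33 lay at the Wt level and AkCh 20 and 31 above it. The slope was 0.94 ± 0.12 (adjusted p = 0.0073), with a first-step share of 26.9% (18.2% without AkCh 20). Col3a1 was at 1570, 1598 and 1417 CPM, then 1724, 2148 and 1711 CPM, then 3959, 5062 and 4464 CPM, and its 3 groups did not overlap. Of the 12, Col5a1, Col5a2, Col6a2 and Col14a1 were in the last-step class and none in the even class. Of these 4, Col14a1 stayed in it without AkCh 20. Col8a1, Col6a3, Col12a1 and Col16a1 did not pass, with adjusted p of 0.91, 0.059, 0.26 and 0.052, and the last 3 of these passed without AkCh 20. The count of 8 was 7 without Wt 30 and 8 without AkCh 31 or AkCh 33, but 5 without Wt 37 or AkCk 29, 4 without AkCk 27, and 3 without Wt 55 or AkCk 24. Col1a1 and Col1a2 passed in all 9 fits that left out 1 library.

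Of 23 proteoglycan, elastic fibre and matricellular genes, 13 rose and none fell (16 rose without AkCh 20), against the same 1.75% and 7.59% of all genes, with a median slope of 0.47. Decorin (Dcn), a collagen-binding proteoglycan, was at 104, 93.9 and 88.5 CPM in Wt, 143, 139.9 and 114.8 CPM in AkCh, and 343, 505 and 363 CPM in AkCk, with a slope of 1.04 ± 0.12 (adjusted p = 0.0065) and steps of 0.47 ± 0.16 and 1.61 ± 0.17. All AkCh libraries lay above all Wt libraries and below all AkCk libraries. Ogn (osteoglycin) was at 57.6, 60.1 and 61.2 CPM, then 123, 70.1 and 65.2 CPM, then 189, 193 and 155 CPM, and its first-step share of 33.2% dropped to 11.4% without AkCh 20, the highest AkCh library. Fbln2 (fibulin 2), Mfap5 (a microfibril protein), Bgn (biglycan), Fbln5 and Lox (which crosslinks collagen) had slopes of 0.91 ± 0.13, 1.00 ± 0.13, 0.42 ± 0.07, 0.42 ± 0.08 and 0.74 ± 0.15. Fn1, Tnc, Thbs1, Thbs2, Eln, Fbn1, Mfap4, Mgp, Loxl1 and Loxl2 did not pass. The slopes of Mgp and Loxl2 were negative, and their sign changed in some alternatives. Without AkCh 20, Thbs2, Eln and Fbn1 passed as well. The count of 13 was 13 without AkCh 33, 9 without AkCh 31, 7 without Wt 30 or Wt 37, 6 without Wt 55 or AkCk 29, 5 without AkCk 27 and 4 without AkCk 24.

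Of 9 macrophage genes tested, all 9 had positive slopes and 5 rose past the test, against 1.75% of all genes, and also 5 without AkCh 20, against 7.59% of all genes. The median first step was 0.18 with and -0.09 without AkCh 20, and the median last step 0.89 and 1.04. The list had a median slope of 0.54 and summed levels of 93.6 to 106 CPM in Wt, 116 to 125 CPM in AkCh, and 193 to 242 CPM in AkCk. Mrc1, the mannose receptor, was at 23.3, 22.3 and 20.7 CPM in Wt, 29.995, 28.3 and 25.6 CPM in AkCh, and 58.2, 57.3 and 50.3 CPM in AkCk, with a slope of 0.66 ± 0.07 (adjusted p = 0.0056). Lyve1 and Cd163 were in the even class. Without AkCh 20 Cd163 stayed in it, while the first-step share of Lyve1 moved from 59.8% to 67.9%, out of the class. Lyve1, a hyaluronan receptor also of lymphatic endothelium, was at 15.6, 9.69 and 8.64 CPM, then 18.4, 26.5 and 24.8 CPM, then 36.1, 37.9 and 39.2 CPM, and Cd163, a hemoglobin scavenger receptor, at 2.47, 1.96 and 2.94 CPM, then 3.52, 4.72 and 5.11 CPM, then 10.6, 8.56 and 5.59 CPM. Csf1r, the receptor for the macrophage growth factor, was in the last-step class at 28.6, 23.3 and 24.7 CPM, then 20.9, 27.6 and 28.6 CPM, then 55.8, 60.5 and 45.6 CPM. Cd68, C1qb, C1qc and Aif1 did not pass, and without AkCh 20 their first steps were -0.23, -0.27, -0.40 and -0.44. The count of 5 was 4 without Wt 30, AkCh 31 or AkCh 33, 3 without Wt 37, Wt 55 or AkCk 29, and 2 without AkCk 24 or AkCk 27, Mrc1 and Lyve1 passing in all 9 of these fits and Csf1r in 2. Of 8 Schwann cell genes 3 rose (also 3 without AkCh 20), namely Sox10, Foxd3 and Gfra3, all at 1.81 CPM or less in every library. These calls rested on single libraries: 1 of the list rose without Wt 30, 2 without AkCh 31 or AkCh 33, and 0 without Wt 37, Wt 55 or any AkCk library.

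Of 14 stroma regulators, 3 rose and none fell, with a median slope of -0.03, and 5 rose and 1 fell without AkCh 20. The shares of all genes were 1.75% and 1.65%, and 7.59% and 8.57% without it. Tbx18, a factor of ureteric and stromal mesenchyme, was at 3.28, 2.35 and 2.40 CPM in Wt, 3.97, 4.00 and 3.31 CPM in AkCh, and 7.13, 8.91 and 8.99 CPM in AkCk (slope 0.82 ± 0.11, adjusted p = 0.0085). Twist2, a bHLH factor, and Pdgfra, a receptor of fibroblasts, had slopes of 0.94 ± 0.12 and 0.40 ± 0.07. Foxd1, which defines the stromal progenitors, was at 21.0, 24.7 and 26.2 CPM in Wt, 66.9, 34.4 and 25.3 CPM in AkCh and 39.7, 39.5 and 34.8 CPM in AkCk, with AkCh 20 the highest of all, and passed only without that library (slope 0.33 in both fits, adjusted p = 0.35 with and 0.010 without it).

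Most of the listed transcripts that are kept in the nucleus or retain introns fell. Of 12 tested, all 12 had negative slopes and 7 fell past the test, where 1.65% of all genes fell (10 without AkCh 20, where 8.57% fell), with a median slope of -0.51 and median steps of -0.31 and -0.80. Their summed level was 1202 to 1377 CPM in Wt, 1087 to 1183 CPM in AkCh, and 793 to 817 CPM in AkCk. Malat1, a nuclear long noncoding RNA, was at 105, 98.2 and 118 CPM in Wt, 95.6, 47.1 and 82.8 CPM in AkCh, and 35.5, 43.7 and 28.2 CPM in AkCk (slope -0.79 ± 0.14, adjusted p = 0.018). Neat1, the noncoding RNA of paraspeckles, went from 18.46, 18.2 and 33.5 CPM over 22.4, 10.2 and 13.6 CPM to 4.00, 5.99 and 3.75 CPM (slope -1.17 ± 0.21). Clk1, Clk4, Ccnl1, Ccnl2 and Srsf11, a set of splicing kinases, cyclins and a splicing factor, also fell, at -0.65, -0.66, -0.79, -0.59 and -0.31 per step. The count of 7 was 6 or 7 without Wt 30, Wt 37, AkCh 31 or AkCh 33, but 4 without AkCk 27 or AkCk 29, 3 without Wt 55 and 2 without AkCk 24.

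The genes of the branching tip and of the nephron progenitors had their lowest summed levels in AkCk, and the number of calls turned on AkCh 20. All 12 ureteric bud tip genes had negative slopes, with a median of -0.31. Ret and Wnt11 fell past the test, against 1.65% of all genes, and 10 of the 12 did so without AkCh 20, against 8.57% of all genes. Ret, the receptor for Gdnf, was at 36.1, 38.6 and 40.6 CPM in Wt, 41.5, 29.5 and 28.3 CPM in AkCh, and 9.47, 7.28 and 17.1 CPM in AkCk (slope -0.88 ± 0.20, adjusted p = 0.048). Wnt11, which is made at the bud tips, was at 38.1, 52.6 and 53.0 CPM, then 52.1, 38.1 and 37.4 CPM, then 18.46, 22.2 and 27.9 CPM (slope -0.53 ± 0.12, adjusted p = 0.047). Both lost the call when Wt 37, Wt 55, AkCh 31, AkCh 33 or any AkCk library was left out, and Ret also without Wt 30, and both with Xist as a covariate. Of 14 cap mesenchyme genes, 13 had negative slopes and none passed, with a median slope of -0.39, whereas 8 fell without AkCh 20. Six2, a progenitor transcription factor, was at 66.4, 82.9 and 104 CPM in Wt, 162, 75.8 and 69.0 CPM in AkCh, and 27.6, 13.02 and 57.7 CPM in AkCk, with adjusted p of 0.32 with and 0.068 without AkCh 20. Gdnf, the ligand of Ret, was at 29.45, 34.8 and 39.3 CPM, then 64.9, 31.5 and 26.4 CPM, then 10.51, 6.22 and 14.6 CPM, with adjusted p of 0.18 with and 0.012 without it, and Cited1 was at 35.5, 48.6 and 46.5 CPM, then 65.8, 35.9 and 29.8 CPM, then 11.4, 10.2 and 26.2 CPM, with 0.16 and 0.019. In each of these 3 genes AkCh 20 was the highest library, and AkCk 29 was the highest AkCk library. Early nephron genes were called for 1 of 14, Osr2, a zinc finger factor, which fell by 0.35 ± 0.08 per step and kept the call in 1 of 9 fits that left out a library, and 1 rose and 5 fell without AkCh 20.

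**Figure D4:**
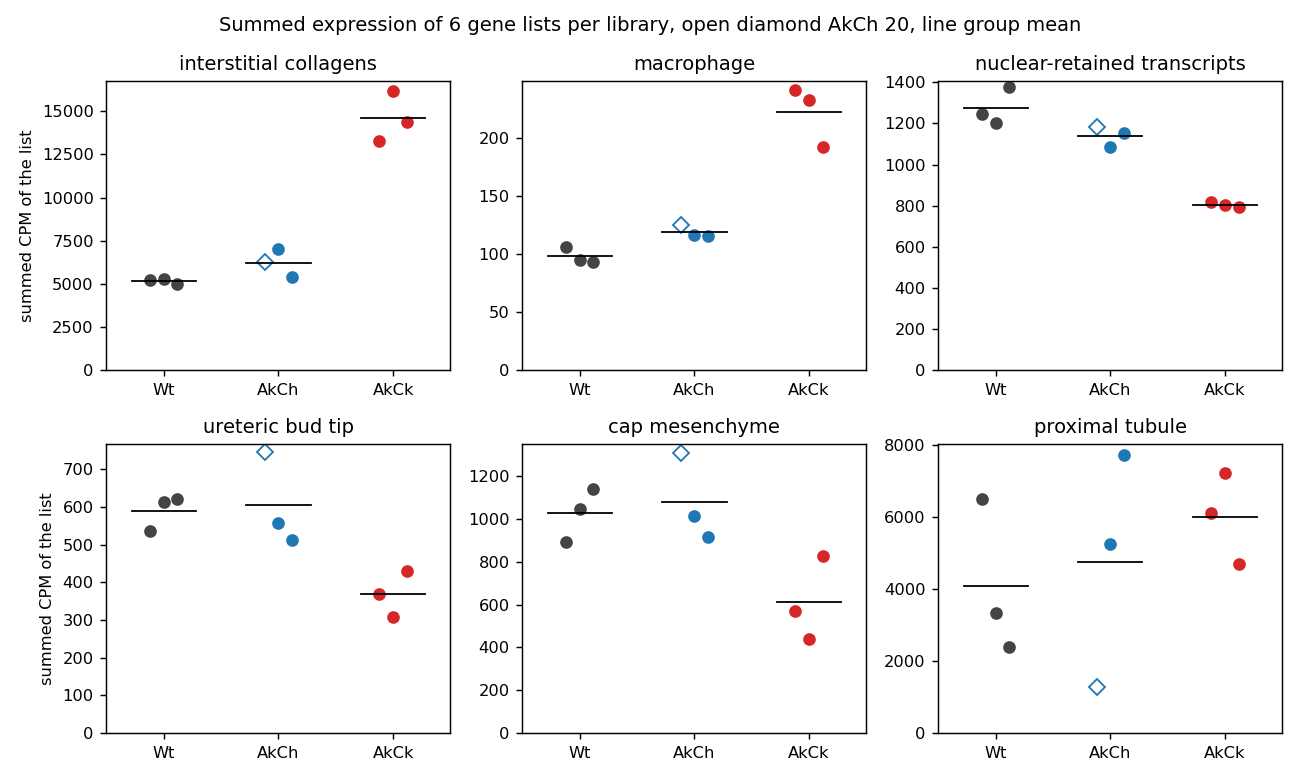
Each panel plots, on an axis from 0, the summed CPM of a gene list in each library by genotype, with an open diamond for AkCh 20 and a line at the group mean. AkCk lies above all other libraries in interstitial collagens and macrophage genes. It lies below them in nuclear-retained transcripts, ureteric bud tip and cap mesenchyme genes, and overlaps them in proximal tubule genes. AkCh 20 is the highest library in ureteric bud tip and cap mesenchyme genes and the lowest in proximal tubule genes.

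Proximal tubule genes did not follow the order. None of 20 passed with or without AkCh 20, and their summed level was 2381 to 6484 CPM in Wt, 1266 CPM in AkCh 20, 5258 and 7709 CPM in AkCh 31 and 33, and 4700.4 to 7218 CPM in AkCk. Wt 30 was within the range of AkCk, and Wt 37 and Wt 55 were below all mutants other than AkCh 20. The 17 positive slopes had no support beyond the spread: Lrp2, the endocytic receptor megalin, was at 1050.0, 523 and 420.3 CPM in Wt, 177, 957 and 947 CPM in AkCh, and 975, 1113 and 828 CPM in AkCk (adjusted p = 0.62). None of 14 podocyte genes passed with all libraries, and 7 rose without AkCh 20, where 7.59% of all genes rose and 8.57% fell. None of the 12 loop of Henle, 10 distal tubule, 12 principal cell or 10 intercalated cell genes passed, and without AkCh 20 the counts were 2 risen and 1 fallen, 0, 3 fallen and 1 fallen.

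The remaining lists gave few calls with all libraries, where 1.75% of all genes rose and 1.65% fell, and more without AkCh 20, where 7.59% rose and 8.57% fell. Of 16 imprinted growth genes 1 rose, Dlk1, and without AkCh 20 8 rose and 1 fell. Dlk1 was also the only 1 of 20 Notch pathway genes to pass, with 15 negative slopes among the 20, and without AkCh 20 2 rose and 1 fell. Krt20 was the only 1 of 8 urothelial genes to pass (also 1 without AkCh 20), and none of them passed without AkCk 24, AkCk 27 or any Wt library. No gene passed among 10 smooth muscle, 10 basement membrane, 10 endothelial, 12 cell cycle or 8 immediate early genes, and without AkCh 20 the risen counts in the first 3 lists were 4, 3 and 2, while 1 cell cycle gene fell (Mki67). All 12 cell cycle genes had negative slopes. Lists for tissues that a whole kidney can carry along gave no call with all libraries, and without AkCh 20 2 skeletal muscle, 1 erythroid and 1 adrenal gene rose, as did 1 skeletal muscle gene without Wt 55 and 1 erythroid gene without Wt 37. Skeletal muscle genes summed to 4.5 to 10.4 CPM in Wt, 4.4 to 9.4 CPM in AkCh and 8.1 to 16.6 CPM in AkCk, erythroid genes to 532 to 1349, 549 to 1985 and 1134 to 1508 CPM, liver genes to 51.7 to 90.6, 85.5 to 149.6 and 73.9 to 149 CPM, and adrenal genes to 7.0 to 8.3, 7.2 to 15.8 and 7.0 to 11.7 CPM. The part of the skeletal muscle genes' higher level in AkCk in the rises of matrix genes was not tested.

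**Figure D5:**
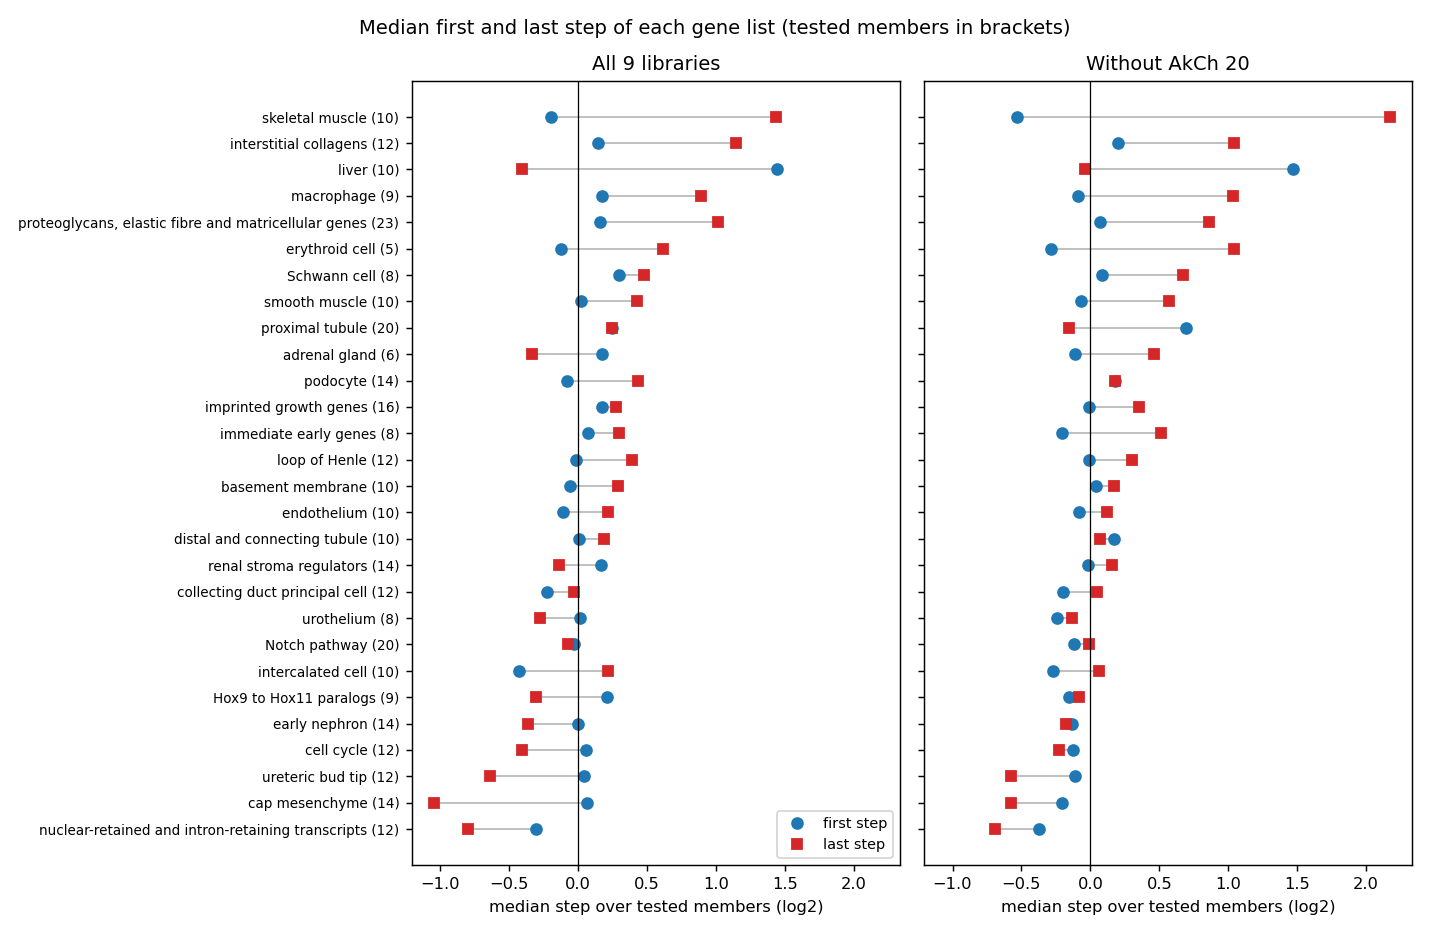
For each gene list, with the number of tested members in brackets, the circle gives the median first step and the square the median last step over members (log2), for all 9 libraries on the left and without AkCh 20 on the right. Collagens, proteoglycans and macrophage genes have the larger step last in both panels, nuclear-retained transcripts fall in both steps, and proximal tubule genes change from equal medians to 0.70 and -0.16 without AkCh 20.

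Genes beside the targeted clusters can be inherited together with the mutant alleles, and are given apart. Whether they were so inherited in these embryos was not tested. Within 5 Mb of the HoxC cluster (chromosome 15, 102921131 to 103036856 in GRCm38), 7 of 134 genes tested passed the trend test (5.22%, against 3.39% of all genes), and within 5 Mb of the HoxA cluster (chromosome 6, 52155367 to 52260880) 2 of 92 did (2.17%). Without AkCh 20 the shares were 20.1% and 31.5%, against 16.2% of all genes. The 3 steepest near HoxC were Mettl7a2, AB099516 and Mettl7a3, which lie within 2.57 Mb of it. Mettl7a2, a methyltransferase-like gene, was at 0.0262, 0.0228 and 0.0245 CPM in Wt, 1.22, 3.12 and 3.60 CPM in AkCh, and 12.4, 19.7 and 2.93 CPM in AkCk. Wt was at most 1 count per library, AkCk 29 overlapped AkCh, and no fold is given. AB099516 overlaps Mettl7a2 in position and had nearly the same values, so reads of the pair may be split or shared by the counting. Mettl7a3 was at 0 in all Wt libraries and at 0.434 to 1.47 CPM in AkCk. The others were Tuba1c (a tubulin) and Acvrl1 (a BMP receptor of vessels), which rose, and Prpf40b and Scn8a (a sodium channel), which fell. Near HoxA, Adcyap1r1, the receptor for PACAP, was at 2.20, 1.00 and 1.35 CPM in Wt, 2.60, 3.03 and 3.496 CPM in AkCh, and 4.39, 7.504 and 7.58 CPM in AkCk, an even slope of 1.05 ± 0.16 (adjusted p = 0.011), and Tmem176a rose by 0.31 ± 0.07. Adcyap1r1 passed in 7 of the 9 fits that left out 1 library, and Mettl7a2, AB099516, Mettl7a3, Tuba1c and Scn8a in 5. Prpf40b passed in 4 of these fits, and Acvrl1 and Tmem176a in 1 each.

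None of the 9 Hox9 to Hox11 genes followed the order with all libraries, and 7 of the 9 slopes were negative, with the signs of Hoxa9, Hoxc9 and Hoxd10 changing in some alternatives. Hoxa10 was at 124, 150.2 and 163 CPM in Wt, 152, 102 and 106 CPM in AkCh, and 99.1, 102 and 110.3 CPM in AkCk (slope -0.24 ± 0.08, adjusted p = 0.13). Hoxc10 was at 49.6, 58.1 and 66.1 CPM, then 119, 44.8 and 41.1 CPM, then 37.4, 28.7 and 35.4 CPM (slope -0.39 ± 0.23, adjusted p = 0.39). These were the 2 of 9 genes that fell past the test without AkCh 20, against 8.57% of all genes. AkCh 20 was above the other AkCh libraries in 8 of the 9 Hox genes. Hoxa11 was at 43.7, 52.1 and 59.0 CPM in Wt, 42.8, 51.2 and 51.6 CPM in AkCh, and 36.7, 37.7 and 52.2 CPM in AkCk, and its slope did not pass (adjusted p = 0.37). Hoxc9 and Hoxc11 had slopes of -0.14 and -0.32 (adjusted p = 0.80 and 0.41), and the intact Hoxd9, Hoxd10 and Hoxd11 had slopes of 0.05, -0.01 and -0.08.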

How the data were processed

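Total RNA of whole E18.5 kidneys was sequenced by the authors (paired-end Illumina TruSeq). By the study's methods, reads were analysed with Strand NGS on mouse build mm10 and reads aligning to more than 1 position were removed; the counter, its strand setting and the annotation are not given in the sources used here. The deposited expected counts, which carry fractions, for 36186 genes were rounded to whole numbers. The authors also deposited normalized log2 values, used here only as an alternative. The members and gene lists were chosen with earlier results of these data known.

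The 9 libraries of run 1008 were fitted with edgeR 4.0.16 in R 4.3.3 (TMM, filterByExpr with a minimum count of 10, quasi-likelihood test, Benjamini-Hochberg adjustment over all genes tested). One fit had a slope on the score 0, 1, 2, and another had a mean for each group, which gave both steps and the departure from even steps. CPM are TMM-scaled. The floor of 3 counts equals 0.0684 to 0.1146 CPM, depending on the library. It covers counting error only, as PCR copies were not told apart by molecular identifiers. Alternatives used RLE factors, library size only, DESeq2 1.42.0, genes with at least 1 count, limma 3.58.1 (voom with quality weights, and the log2 values), Xist as a covariate, a correction for GC content and length in 20 bins, other order scores, wider and narrower class limits, an exact Jonckheere-Terpstra test, and leaving out each library. The slope test and the class rules were tested on simulated data. Those data held no outlying library such as AkCh 20 and no difference by sex, so they do not cover these features. Of the 36186 rows, 33006 matched a RefSeq position (GRCm38.p6) and 30964 a GENCODE length. Where a symbol occurs more than once (92 symbols) the entry with most reads kept it.

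Genes were named by a rule: the 10 steepest rises and falls past the trend test with at least 10 counts on average and AkCh between the others, the 8 rises and 8 falls with the smallest p in each class, the Hox9 to Hox11 genes, members of the 28 lists, called genes within 5 Mb of either cluster, and 5 sex markers. Of 339 list genes, 6 were not matched in the table. Some genes that this rule names are not reported here.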

Additional observations from a re-analysis of the deposited data

How the results depend on the processing

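The number of genes past the trend test, 544, was 450 to 725 with RLE factors, library size only, genes with at least 1 count, the Xist covariate, the correction for GC content and length, or limma on the deposited log2 values. DESeq2 gave 1647 and voom with quality weights 3615, the order scores 0, 3, 4 gave 8, the scores 0, 0, 1 gave 1032, and both the scores 0, 1, 1 and the exact Jonckheere-Terpstra test gave 0. Leaving out 1 library gave 55 to 2627 genes. For the departure from even steps, DESeq2, voom and limma on log2 values gave 51, 34 and 3 genes against 0, and leaving out a library gave 0 to 4. The same 3 tools gave 20, 26 and 3 genes for the first step, and leaving out a library gave 0 to 4. For the last step, DESeq2, voom and the Xist covariate gave 1116, 2132 and 701 genes against 181, and leaving out a library gave 0 to 970, the 0 without AkCh 33 and also without AkCk 27. The count was 56, 51 and 55 without Wt 30, Wt 37 and Wt 55, 14 without AkCh 31, 12 without AkCk 24 and 77 without AkCk 29.

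The even class held 367 genes with voom, 165 with the Xist covariate (45 shared with the 84), 55 with narrower limits of 40% to 60%, and 22 to 154 when 1 library was left out. The last-step class held 229 genes with DESeq2, 420 with voom, 31 with limma on log2 values, and 44 with the Xist covariate (25 shared with the 54). It held 35 genes with narrower limits of -10% to 10%, and 0 to 326 when 1 library was left out. The first-step class held 1 gene with DESeq2 and 3 with voom. The completely ordered genes numbered 1190 without AkCh 20. The cause of these differences was not tested.

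Over the 119 genes named with their slopes, 298 of the values under alternatives fell short of the threshold that the slope had passed (59 genes), 26 passed where it had not (15 genes), and 14 changed sign (6 genes, none past the trend test). With library size only Hoxa9 was at -0.0197. With the Xist covariate Hoxd10 was at 0.139, Mgp at 0.0206 and Hoxc9 at 0.0577. When 1 library was left out, the slope of Hoxa9 ran from -0.0211 to 0.0581, that of Col8a1 from -0.0025 to 0.202, that of Loxl2 from -0.113 to 0.0261, and that of Hoxd10 from -0.065 to 0.0505. No paired analysis was possible because the groups compared share no replicate numbers.

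With 3 libraries a group, the libraries limit the comparisons: AkCh 20 differs in makeup and sexes are unequal between Wt and the mutants, so that sex and genotype are partly confounded in the first step, and wholly so without AkCh 20. Genes whose mean in a group lay under the floor of 3 counts carry no fold.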
